A study of Mus musculus with 6 samples.

Results

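The genes described here encode the cytosolic HSP70 chaperone machinery: Hspa8, Hspa1a, Hspa1b, Hsph1, Dnaja1 and St13. Their HSF1 peaks were selected from the 4 deposited HSF1 peak lists as those overlapping 5 windows of the mouse build mm9, with Hspa1a and Hspa1b sharing 1 window. The windows span 40.60 to 40.62 Mb of chromosome 9 (Hspa8), 35.08 to 35.12 Mb of chromosome 17 (Hspa1a and Hspa1b) and 150.41 to 150.45 Mb of chromosome 5 (Hsph1). The others span 40.66 to 40.69 Mb of chromosome 4 (Dnaja1) and 81.21 to 81.24 Mb of chromosome 15 (St13). They hold 27 of the 8886 peaks in the 4 lists together, which merge into 12 of 6577 regions. The genes were chosen by the peaks themselves, so the presence, score and width of these peaks are given as a description, without a test. No mm9 annotation was used here: the link from window to gene comes from the choice of windows, and peaks were not placed relative to start sites or exons.

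HSP70 proteins bind unfolded stretches of other proteins and release them through cycles of ATP hydrolysis. J-domain proteins such as Dnaja1 deliver clients and speed up hydrolysis, whereas nucleotide exchange factors such as Hsph1 (an HSP110 protein) release ADP and reset the cycle. HSF1, the main transcription factor of the heat shock response, binds heat shock elements, which are alternating GAA and TTC units set 2 bases apart, and activates many of these genes when proteins unfold.

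HSF1 was mapped by chromatin immunoprecipitation and sequencing (ChIP-seq) in striatal cells from mouse embryos that were either wild type (STHdhQ7/Q7, with the genotype HdhQ7/Q7) or homozygous for a knocked-in huntingtin allele with an expanded polyglutamine tract (STHdhQ111/Q111, HdhQ111/Q111). Below they are named Q7 and Q111 cells. Both lines were grown at 33 °C in medium with G418, and each was assayed without treatment and after 6 hours at 42 °C. The labels name 1 line per genotype, so genotype and line cannot be told apart. Each of the 4 conditions had 1 HSF1 library and 1 peak list, so the values have no replicate error and no test between conditions was possible. The 2 control IgG libraries were not analysed here, and peak lists hold no expression values with which to check the cell type. The lists held 260 peaks (Q7, 33 °C), 292 (Q111, 33 °C), 6173 (Q7, 42 °C) and 2161 (Q111, 42 °C). Read depth is unknown, and a window without a peak is one in which none passed the authors' threshold.

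Each of the 4 genes described here that had an entry in the RefSeq promoter table held a match to a heat shock element pattern. For 3 exact units, only Hsph1 did. The table, on build GRCm38.p6, gives 250 bases before and 50 after each annotated start site and matched 4 of the 6 genes (Hspa1a, Hspa1b, Hsph1 and Dnaja1), with 7 start sites. The upstream bases below are shown because each holds an element near the start of a gene whose window held a peak in both lines after heat shock. Sequences run 5′ to 3′ on the gene's strand, and capitals mark every base in a match to 2 exact units, or to 3 units with 1 mismatch. They come from chr17:34972157-34972406 (Hspa1a, minus strand), chr17:34959239-34959488 (Hspa1b, minus strand), chr5:149636337-149636586 (Hsph1, minus strand, the start site lying farther upstream) and chr4:40722218-40722467 (Dnaja1, plus strand, start site 1 of 3). These coordinates are on another build than the peaks and were not compared with them.
Hspa1a: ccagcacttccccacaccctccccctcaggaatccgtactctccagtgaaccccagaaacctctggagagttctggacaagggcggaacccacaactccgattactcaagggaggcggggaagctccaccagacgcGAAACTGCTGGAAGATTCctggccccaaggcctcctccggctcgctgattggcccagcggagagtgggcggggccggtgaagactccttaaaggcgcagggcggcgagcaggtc
Hspa1b: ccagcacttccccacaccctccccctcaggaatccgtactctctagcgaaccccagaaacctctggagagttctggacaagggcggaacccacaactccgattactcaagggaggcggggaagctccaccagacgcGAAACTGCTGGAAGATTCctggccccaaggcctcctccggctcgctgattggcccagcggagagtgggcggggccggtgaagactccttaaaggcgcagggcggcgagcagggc
Hsph1: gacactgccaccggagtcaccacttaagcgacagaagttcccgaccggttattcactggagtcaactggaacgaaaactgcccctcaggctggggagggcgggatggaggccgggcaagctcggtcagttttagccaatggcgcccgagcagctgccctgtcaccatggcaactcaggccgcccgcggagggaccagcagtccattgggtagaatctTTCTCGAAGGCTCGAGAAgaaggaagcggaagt
Dnaja1: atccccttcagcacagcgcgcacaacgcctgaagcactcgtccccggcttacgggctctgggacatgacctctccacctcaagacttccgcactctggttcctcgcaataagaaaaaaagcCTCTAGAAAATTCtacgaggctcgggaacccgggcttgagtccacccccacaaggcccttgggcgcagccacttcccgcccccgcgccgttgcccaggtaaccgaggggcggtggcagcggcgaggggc

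In Hspa1a and Hspa1b, the capitals cover 18 bases from 114 to 97 bases before the start site. They spell 4 alternating units of which 1 letter departs from the pattern. Hsph1 had an element of the same size and the opposite order from 33 to 16 bases before its upstream start site. In Dnaja1 the match was shorter, 13 bases from 129 to 117 bases before start site 1, and its start sites 2 and 3 had none. Hsph1 also had an exact 3-unit element downstream of the start site, at positions 37 to 49 after the upstream site and 16 to 28 after the downstream one. It is shown with its flanks, the capitals marking the element.
Hsph1 element: cagaTTCTGGAAAGTTCt

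The search covered both strands, since each pattern and its reverse complement were used: GAANNTTC and TTCNNGAA for 2 units, and GAANNTTCNNGAA and TTCNNGAANNTTC for 3. An exact 3-unit match contains 2-unit matches, whereas one with a mismatch in its middle unit need not. Exact 3-unit elements were present in 2 of the 7 member promoters (both of Hsph1), beside 0.603% of all 32851 promoters in the table. Allowing 1 mismatch, 5 of 7 promoters and all 4 genes had a 3-unit match, beside 7.22% of all promoters. For 2 exact units the count was also 5 of 7, beside 15.1%. A search for 4 units with at most 1 mismatch was added after the sequences had been seen. It matched 4 of 7 member promoters, belonging to 3 of 4 genes, beside 0.289% of all promoters. The members are not independent in this count, because the promoters of Hspa1a and Hspa1b are close copies and those of Hsph1 overlap. A match is a stretch of letters, not a measured binding site.

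**Figure D1:**
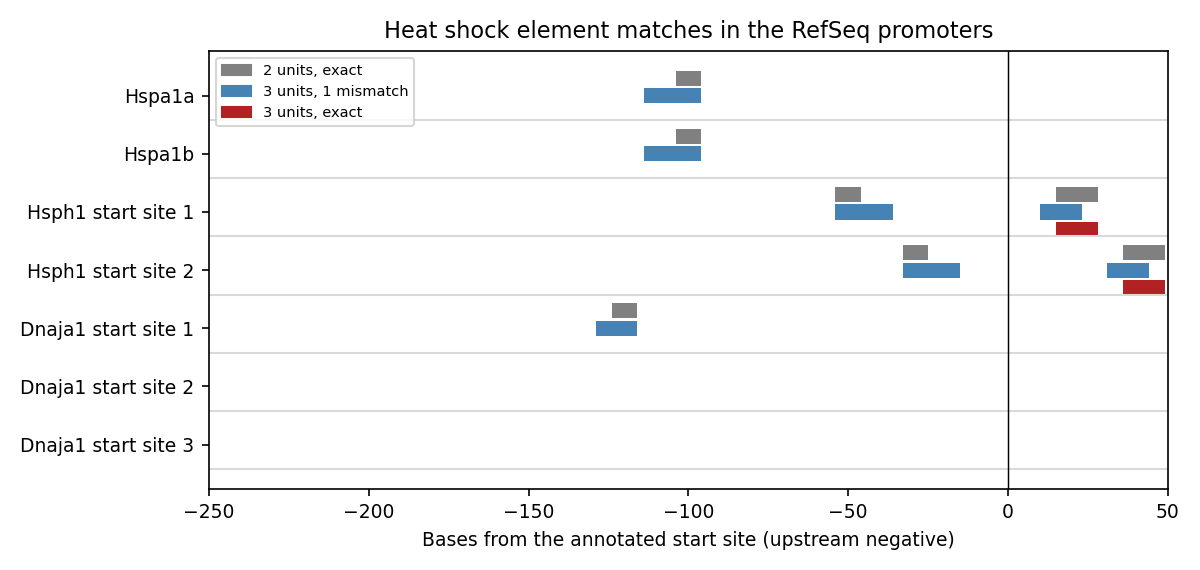
Position of heat shock element matches in the 7 RefSeq promoters of Hspa1a, Hspa1b, Hsph1 and Dnaja1, with the distance in bases from the annotated start site on the horizontal axis and a row per start site. Grey bars are 2 exact units, blue bars 3 units with 1 mismatch and red bars 3 exact units; the red bars occur only in the Hsph1 rows, downstream of the start site, and Dnaja1 start sites 2 and 3 have no bar.

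A list of 37 other genes of the HSP70 machinery (further HSP70 and HSP110 proteins, J-domain proteins, BAG proteins and other cochaperones) was searched in the same way. Promoters were found for 29 of them. An exact 3-unit element was present in 1 gene, Dnajb6, a J-domain protein that suppresses aggregation of polyglutamine proteins, beside 0.662% of all 27025 genes in the table. With 1 mismatch allowed, 3 of the 29 genes had a match (Dnajb6, Dnaja4 and Dnajb4), compared with 8.15% of all genes. For 2 exact units the count was 5 of 29 (these 3, Bag3 and Stub1), beside 4587 of the 27025 genes. The added search for 4 units with at most 1 mismatch matched 2 of 29 (Dnajb6 and Dnaja4), beside 0.329% of all genes. Genes other than Dnajb6 were named after their matches had been seen. Hspa1l, the testis-enriched HSP70 gene that follows Hspa1b and Hspa1a on chromosome 17 in the RefSeq order, had no match under any of these patterns. Without an mm9 annotation, the peaks at these 37 genes were not looked up.

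Hspa8 encodes HSC70, the HSP70 protein present in cells without stress. Its window held a peak in every list. The peak at 33 °C ran from 40608964 to 40609616 in Q7 cells and from 40608752 to 40609639 in Q111 cells. The 42 °C peak of Q7 cells ran from 40608638 to 40609973, and that of Q111 cells from 40608825 to 40609788. From 33 to 42 °C the centre moved towards higher coordinates, by 15.5 bases in Q7 cells and farther in Q111 cells. All 4 peaks shared 653 bases, which is the whole of the Q7 peak at 33 °C. By the authors' score, which was ranked within each list only, it stood 23rd of 260 in Q7 cells (score 396) and 8th of 292 in Q111 cells (score 1027) at 33 °C. At 42 °C it scored 3100 in both lines. That was the highest score of the Q111 list, shared by 12 peaks. In the Q7 list 73 peaks were tied at 3100 and 12 scored higher, up to 3217.38, so the tied peaks ranked 13th. What this shared value stands for is not stated in the sources used here. Whether the 12 peaks above it were stronger than the tied ones is therefore unknown.

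A further Hspa8 peak appeared at 42 °C only, on the side of lower coordinates. It ran from 40607825 to 40608550 in Q7 cells (726 bases, score 1671, rank 247) and from 40607841 to 40608347 in Q111 cells (507 bases, score 412, rank 588). The Q111 peak lay wholly inside the Q7 peak. The gap to the main peak was 87 bases in Q7 and 477 bases in Q111 cells.

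Hspa1a and Hspa1b encode the stress-inducible HSP70 proteins and lie side by side on chromosome 17. Theirs was the only one of the 5 windows without a peak at 33 °C, in both lines. At 42 °C, 2 sites were called in both lines. The lower-coordinate site ran from 35095941 to 35096970 in Q7 cells and from 35095958 to 35097169 in Q111 cells. The higher-coordinate site ran from 35108872 to 35109780 and from 35108885 to 35109683 respectively. The left edges of the peaks thus agreed between lines within 17 and 13 bases. The centres of the sites were 12870.5 bases apart in Q7 and 12720.5 bases apart in Q111 cells.

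In Q7 cells both Hspa1a/Hspa1b sites were among the peaks tied at 3100. In Q111 cells they scored 1133 and 1119, at ranks 142 and 150 of 2161, whereas the main peaks of the other 4 windows were all tied for the highest score. By width the order turned in part for the lower-coordinate site, the 10th widest Q111 peak at 42 °C (0.463% of the list). It stood ahead of Hspa8 (1.62%), Dnaja1 (1.57%) and St13 (2.13%) but behind Hsph1 (0.185%). The higher-coordinate site, at 4.21%, stayed behind the main peaks of the other windows. All 85 Q7 peaks scoring 3100 or more at 42 °C overlapped a Q111 peak, whose rank had a median of 71 and ranged from 1 to 950. In the series as a whole, counting regions of any score, 66.6% of the 6577 merged regions held a peak in the Q7 list at 42 °C alone. Of the 85, 57 ranked higher in the Q111 list than the lower-coordinate site and 27 ranked lower. No 33 °C peak in either line was found for 39 of the 85 (45.9%). That absence was more usual in the series, although the series share counts merged regions of any score and not top-scoring Q7 peaks. Besides the 66.6% of merged regions above, 22.5% held a peak in both lines at 42 °C and none at 33 °C. With 1 library per line, the lower rank in Q111 cells cannot be told apart from a difference between libraries.

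The promoters of Hspa1a and Hspa1b are nearly the same. Over 300 bases they differ at 4 positions (98.7% identity), and 201 bases in a row are identical. Counted from 1 at the 5′ end of the printed sequences, with the Hspa1a base first, the differences are C44T, T47C, T249G and C276T, the last lying past the start site and outside the printed stretch. None falls in the heat shock element. The read length and the treatment of reads that match several places are not stated in the sources used here. How the signal was divided between the sites is therefore uncertain, and the peaks were not assigned to 1 gene each.

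Smaller peaks in the Hspa1a/Hspa1b window differed between the lists. Q7 cells had a peak from 35098107 to 35098577 with a score of 98.4, rank 5668 of 6173, close to the lowest score of that list, 90.03. Q111 cells had peaks from 35104954 to 35105870 (score 255, rank 908) and from 35106292 to 35106661 (score 113, rank 1773), both between the main sites. None of these 3 overlapped a peak of another list.

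Hsph1 encodes HSP110, the nucleotide exchange factor. It had the lowest-scoring peak of the windows occupied at 33 °C, in both lines. In Q7 cells it ran from 150438710 to 150439248 with a score of 156, rank 132 of 260, and in Q111 cells from 150438587 to 150439522 with a score of 266, rank 113 of 292. At 42 °C it scored 3100 in both lists, and its limits were 150437897 and 150439593 in Q7, and 150438005 and 150439632 in Q111 cells. The growth was uneven. From 33 to 42 °C the peak reached 813 bases farther towards lower coordinates in Q7 and 582 bases in Q111 cells, but 345 and 110 bases farther on the other side. The centre moved towards lower coordinates, by 234 bases in Q7 and 236 bases in Q111 cells. Q7 cells alone had side peaks at 42 °C, from 150436653 to 150437337 (score 192) and from 150433169 to 150433744 (score 127), at ranks 2949 and 4343.

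Dnaja1 encodes a J-domain cochaperone. Its window held exactly 1 peak in each list. At 33 °C the peak spanned 40669102 to 40669881 in Q7 cells (score 219.6, rank 76) and 40668955 to 40669731 in Q111 cells (score 517, rank 37). The 42 °C peak spanned 40668788 to 40670483 in Q7 cells and 40669047 to 40670013 in Q111 cells, with scores of 3100. In both lines the centre lay at higher coordinates at 42 °C than at 33 °C, by 144 bases in Q7 and 187 bases in Q111 cells. Over all overlapping pairs the median absolute shift was 57.5 bases in Q7 and 63.5 bases in Q111 cells. At 33 °C the Q111 centre already differed from the Q7 centre by -148.5 bases (Hspa8 -94.5, St13 -101.5, Hsph1 75.5). Whether the shifts at these windows came from heat shock was not tested. The line difference in width was largest for Dnaja1: the Q7 peak at 42 °C measured 1696 bases and held the whole Q111 peak of 967 bases.

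St13 encodes HIP, a cochaperone that binds the ADP-bound form of HSP70. Its window likewise held 1 peak in each list, and it scored highest of the windows in Q7 cells at 33 °C. That peak, from 81229928 to 81230706, had the highest score of its list (845). In Q111 cells at 33 °C it ran from 81229802 to 81230629 and ranked 9th of 292 (score 1021), next to Hspa8 at rank 8. The 42 °C peak of Q7 cells ran from 81229562 to 81230934 and that of Q111 cells from 81229883 to 81230792, with scores of 3100. From 33 to 42 °C the centre moved in opposite directions, by -69 bases in Q7 and 122 bases in Q111 cells. All 4 peaks shared 702 bases, the longest common stretch among the 4 windows occupied at 33 °C, compared with 653 for Hspa8, 630 for Dnaja1 and 539 for Hsph1. In RefSeq order the protein-coding neighbours of St13 are Slc25a17 and Xpnpep3, and those of Dnaja1 are Aptx and Smu1.

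**Figure D2:**
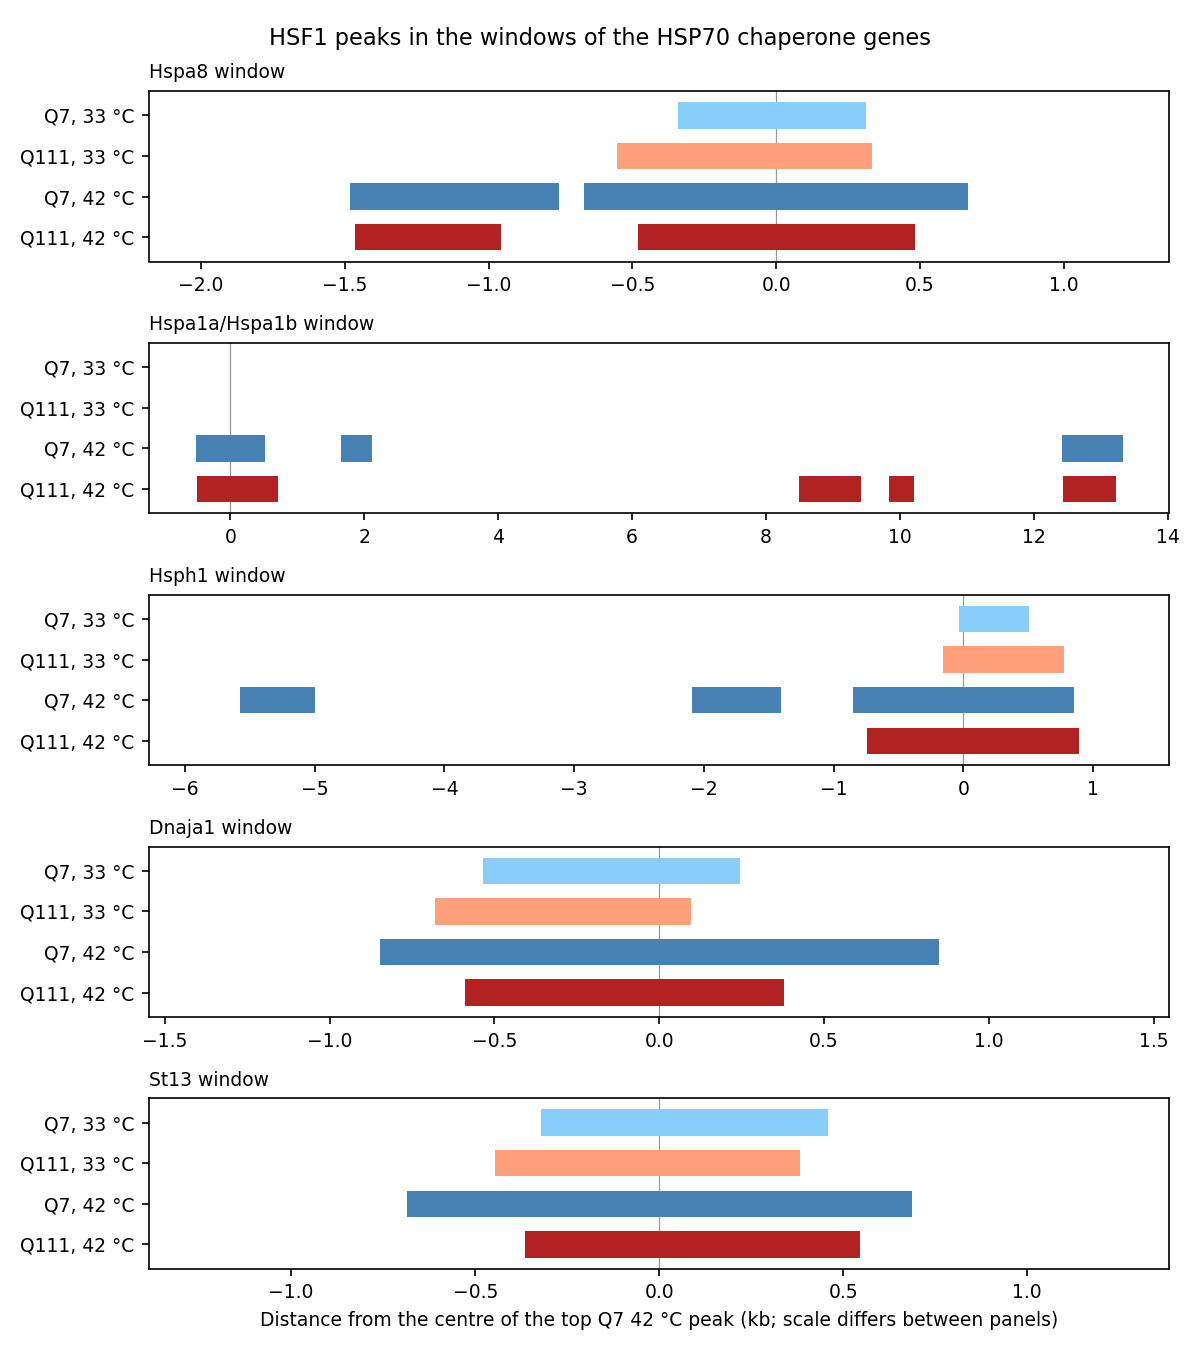
Peaks of the 5 windows in the 4 lists, drawn to scale within a panel, with distance in kb from the centre of the highest-scoring Q7 peak at 42 °C (the wider of the tied peaks for Hspa1a/Hspa1b) on the horizontal axis and a row per list. Bars are called peaks: the Hspa1a/Hspa1b panel is empty at 33 °C, and the other 4 panels have overlapping bars in all 4 rows.

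Side by side, 4 of the 12 merged regions in these windows held a peak in all 4 lists, 1 each for Hspa8, Hsph1, Dnaja1 and St13. Over the whole series 2.48% of regions did. A further 3 regions, the Hspa8 side peak and both Hspa1a/Hspa1b sites, held a peak in both lines at 42 °C and in none at 33 °C, a class that makes up 22.5% of all regions. The remaining 5 regions were held by 1 list at 42 °C, 3 by Q7 and 2 by Q111. Over the series these classes made up 66.6% (Q7) and 5.58% (Q111) of regions. Because the windows were selected on these lists, nothing is read from the difference between these counts and the shares in the series.

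By score, the order of the windows at 33 °C was the same at its lower end in both lines. Dnaja1, Hsph1 and then Hspa1a/Hspa1b, with no peak, came last in this order. By width this was lost: Hsph1 was the narrowest of the 4 peaks in Q7 cells (22.3% of the list) and the widest in Q111 cells (5.48%), where Dnaja1 was the narrowest (14.0%). St13 led Hspa8 in Q7 cells (845 against 396), and in Q111 cells Hspa8 and St13 were nearly level (1027 against 1021). At 42 °C the tie hides the order: 6 of the 10 Q7 peaks in the windows scored 3100, a level reached or passed by 1.38% of the Q7 list. In Q111 cells 4 of 9 did, beside 0.555% of that list. The 12 tied Q111 peaks thus included the main peaks of Hspa8, Hsph1, Dnaja1 and St13. Of the 163 regions with a peak in all 4 lists, 9 scored at least 3100 in both lines at 42 °C, and these 4 were among the 9. The lists differ in length and depth is unknown, so ranks in different lists show no change between conditions.

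**Figure D3:**
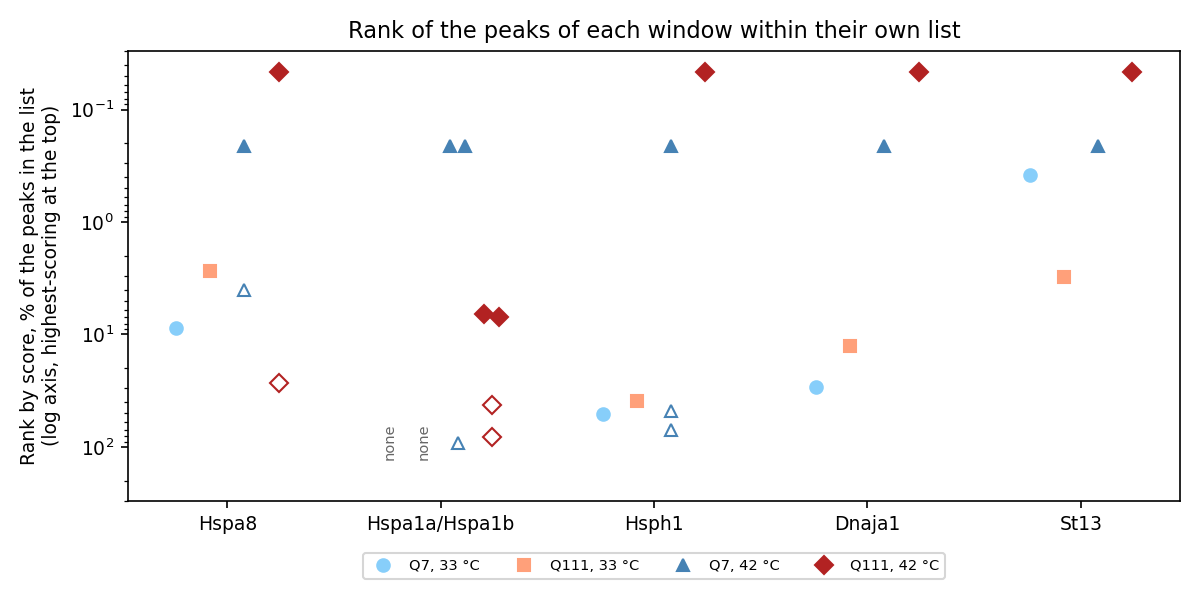
Rank by score of every peak in the 5 windows as a percentage of the peaks in its own list, on a log axis with the highest-scoring peaks at the top. Filled symbols are the highest-scoring peak of a window, or both shared sites for Hspa1a/Hspa1b, open symbols are side peaks, and "none" marks a list without a peak; the Q111 42 °C symbols of Hspa1a/Hspa1b, at 6.57% and 6.94%, lie below the filled symbols of that list in the other windows.

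The main peaks were wide for their lists. At 33 °C they measured 653 (Hspa8), 539 (Hsph1), 780 (Dnaja1) and 779 bases (St13) in Q7 cells, where the median of the list was 420.5. In Q111 cells at 33 °C they measured 888, 936, 777 and 828 bases, beside a median of 549. At 42 °C the same peaks measured 1336, 1697, 1696 and 1373 bases in Q7 cells, beside a median of 495, and 964, 1628, 967 and 910 bases in Q111 cells, beside a median of 444. The lower- and higher-coordinate Hspa1a/Hspa1b sites measured 1030 and 909 bases in Q7 and 1212 and 799 bases in Q111 cells. All main peaks thus exceeded the median width of their list, the narrowest in relative terms being Hsph1 in Q7 cells at 33 °C, at 1.28 times the median. These medians cover peaks of any score, and the windows were chosen by their peaks, so this is a description only. Among the 73 Q7 peaks tied at 3100, with widths from 468 to 2633 and a median of 863 bases, Hsph1 and Dnaja1 were the 4th and 5th widest. St13 and Hspa8 stood 11th and 12th, and the Hspa1a/Hspa1b sites 23rd and 31st. The 12 Q111 peaks tied at 3100 had a median of 827.5 bases. Among them Hsph1, Dnaja1, Hspa8 and St13 were the 2nd, 4th, 5th and 6th widest.

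With heat shock, the peaks of Hspa8, Hsph1, Dnaja1 and St13 widened in both lines. In Q7 cells they gained 683, 1158, 916 and 594 bases, and each 42 °C peak contained the whole 33 °C peak. Over the Q7 lists, 82.9% of 252 overlapping pairs were wider at 42 °C, with a median gain of 199.5 bases, and 65.5% were contained in this way. In Q111 cells the same windows gained 76, 692, 190 and 82 bases, and of these 4 only the Hsph1 peak of 33 °C was contained. Over the Q111 lists, 43.5% of 271 pairs were wider at 42 °C, with a median change of -28.0 bases, and 23.6% were contained. In Q111 cells the 42 °C peaks of Hspa8, Dnaja1 and St13 began 73, 92 and 81 bases inside the left edge of their 33 °C peaks, and ended 149, 282 and 163 bases beyond the right edge.

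Between the lines, 3 of the 4 windows with a 33 °C peak had a wider peak in Q111 than in Q7 cells at 33 °C, by 235 (Hspa8), 397 (Hsph1) and 49 bases (St13). Dnaja1 differed by -3 bases. At 42 °C the Q111 peak was narrower at 6 of the 7 sites called in both lines. The exception was the lower-coordinate Hspa1a/Hspa1b site, wider by 182 bases in Q111 cells. In the lists as a whole, 83.5% of 188 overlapping pairs were wider in Q111 cells at 33 °C and 16.8% of 1791 pairs at 42 °C, so the direction at these windows was that of most pairs. Peak width can depend on depth, which is unknown, and its part in these differences was not tested.

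**Figure D4:**
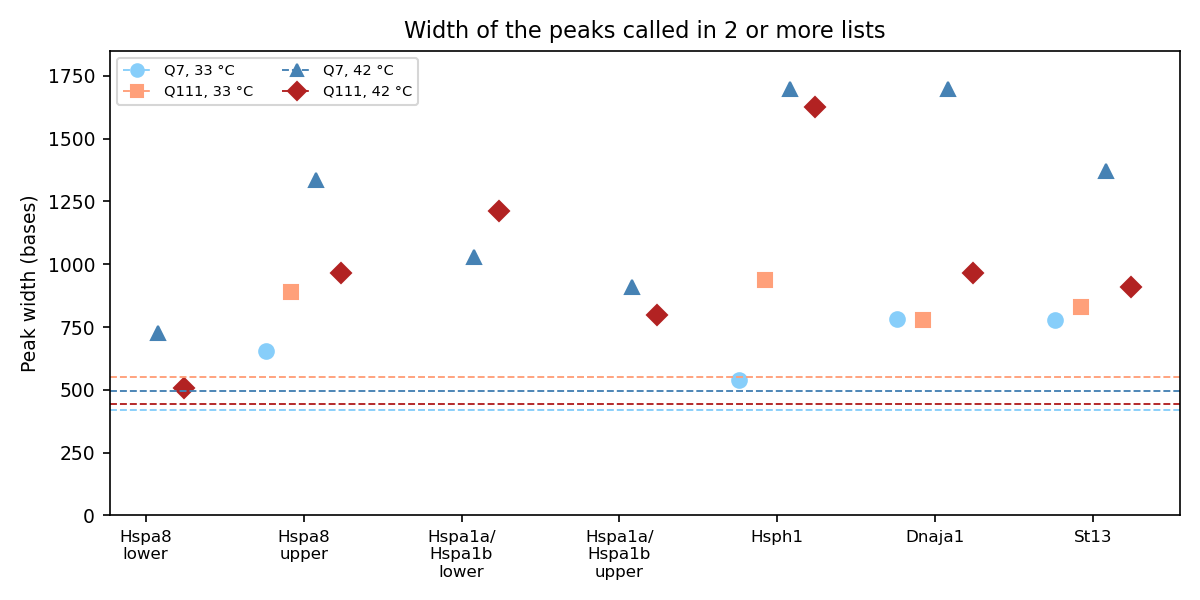
Width in bases of the peaks at the 7 sites of the windows called in 2 or more lists, with symbols for the 4 lists and dashed lines at the median width of each whole list. "Lower" and "upper" are the lower- and higher-coordinate sites of a window; the Q7 42 °C triangles are the highest symbol at every site except the lower Hspa1a/Hspa1b site, where Q111 reaches 1212 bases.

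Peaks close to a main peak were seen at 42 °C only. At 33 °C none of the 4 peaks of either line in the windows had another peak of its list within 10 kb, compared with 33.5% of the Q7 and 34.9% of the Q111 list. At 42 °C a neighbour within 10 kb was present for 3 of 6 top-scoring Q7 peaks (Hspa8, Hsph1 and the lower-coordinate Hspa1a/Hspa1b site), beside 23.9% of the list. In Q111 cells it was present for 1 of the 4 main peaks tied at 3100, that of Hspa8, and for both Hspa1a/Hspa1b sites, beside 17.1% of the list. The nearest peaks left out by the window limits lay 9.29 kb (Q7, score 1506) and 9.52 kb (Q111, score 302) from the edge of the Dnaja1 window at 42 °C. The outermost peak inside that window lay 8.79 kb (Q7) and 9.05 kb (Q111) from its edge. Among the other windows, the nearest peak outside was 44.1 kb away, near Hspa8.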

How the data were processed

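HSF1 ChIP-seq peak lists of 4 libraries were used, 1 per line and temperature. The authors deposited, for each peak, its position and a score. Peaks were called with MACS 1.4.0rc2 on mm9, per the submitters' processing notes. A header is lacking in each list, and the deposited score was read as -10 times the base-10 logarithm of a p-value, which is an inference. It was used for ranks within a list only, with ties given their best rank. The aligner, the background library, the filters and the depth were not given in the sources used here.

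Peaks overlapping a window by at least 1 base were taken, and peaks of different lists sharing at least 1 base were merged into regions, in Python 3.11.15 (numpy 2.4.6, pandas 2.3.3). Positions count from 1. Interval and motif code was tested on simulated data. The 6 genes and all lists were chosen with earlier results of these data known, and every member is named. Alternatives were a minimum score of 100, other window limits, overlap and tie rules, ranking by width, and other element patterns. RefSeq promoters (GRCm38.p6) were matched by symbol.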

Additional observations from a re-analysis of the deposited data

Results flagged for a closer look

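In 3 windows the difference in peak width between the lines turned with temperature. The Hspa8 peak was 235 bases wider in Q111 than in Q7 cells at 33 °C, and the difference (Q111 minus Q7) was -372 bases at 42 °C. For Hsph1 the difference was 397 bases at 33 °C and -69 bases at 42 °C. For St13 it was 49 bases at 33 °C and -463 bases at 42 °C. The lists as a whole turned in the same way. Their median difference was 142 bases over 188 overlapping pairs at 33 °C and -144 bases over 1791 pairs at 42 °C. Each value compares 1 library with 1 library, and the change of the difference was not tested.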

How the results depend on the processing

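The counts, median ranks, relative widths and element counts were repeated 85 times under other settings. Of these repeats, 75 stayed within their interval or within 1.5 times the reported count. The interval holds no replicate error, since each list comes from 1 library. These values have no sign, so a change of direction could not occur. The numbers of windows and peaks and the 4 regions held by all lists stayed within these limits under every setting tried for them. Of 126 repeats of the rank of a single window's top peak, 23 moved beyond their interval, among them Hspa1a/Hspa1b in Q111 cells at 42 °C (6.57% by score, 0.463% by width) and Hsph1 at 33 °C in Q7 (50.8% and 22.3%) and Q111 cells (38.7% and 5.48%). Ranked by width, the median rank of the top peaks was 6.92% of the list in Q7 cells at 33 °C (19.0% by score), 0.551% in Q7 (0.211%) and 1.57% in Q111 cells (0.0463%) at 42 °C. With mean ranks for ties, the medians at 42 °C were 0.794% in Q7 and 0.301% in Q111 cells, since ties then count lower by construction. A minimum score of 100 moved the median relative width at 42 °C to 2.70 in Q7 (reported 2.77) and to 2.13 in Q111 cells (reported 2.18), because it removes narrow low-scoring peaks from the list. The number of genes with an element rose from 1 to 4 with 2 exact units, to 4 with 3 units and 1 mismatch, and to 3 with 4 units and 1 mismatch (added after seeing the data). No paired analysis was possible because each group has 1 library. Depth is unknown, which limits every statement on a missing peak.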

Other observations

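Other promoter letters were counted in the same 7 member promoters, on both strands. The CCAAT box, the binding site of the general factor NF-Y, was present in 6 of 7, with at least 1 promoter of each of Hspa1a, Hspa1b, Hsph1 and Dnaja1, beside 37.4% of all promoters. TATAAA was present in 0 of 7, beside 13.6% of all promoters. The 7 promoters are not independent here either. Those of Hspa1a and Hspa1b are close copies, and those of Hsph1 and of Dnaja1 start sites 2 and 3 overlap. These patterns were chosen after the sequences had been seen, and no test was made.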
